A study of Mus musculus with 12 samples.

Results

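Loss of A1cf was examined in the mouse livers of this series that showed little acute phase transcription. The libraries were chosen by 1 measured value, the level of Saa1, an acute phase reactant of hepatocytes: those with Saa1 below 200 CPM (counts scaled to the library total) were kept, which left 7 of the 12 libraries, 4 wild-type (WT 573, 776, 777 and 778) and 3 A1cf -/- (KO 574, 584 and 780). All mice were of the C57BL/6 strain and 6 to 8 weeks old, each library was liver RNA of the genotype Wild-type or A1cf -/-, no treatment is named in the labels, and the design text given with the series calls the libraries of a genotype biological replicates. The allele that removes A1cf, its exons and the sex of the mice are not named in the sources used here. Lists of 4 WT and 3 KO values below follow the order WT 573, 776, 777, 778 and KO 574, 584, 780.

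A1CF binds RNA in the liver and the gut and takes its name from APOBEC1 complementation. It became known as the partner that places the cytidine deaminase APOBEC1 on Apob mRNA, where conversion of a single C to U creates a stop codon and a shorter apolipoprotein B. The complex recognises a mooring element just 3′ of the edited C. The acute phase response is a separate programme, in which inflammatory cytokines raise hepatocyte genes such as the serum amyloid A, orosomucoid and lipocalin genes by large factors, so that livers in and out of this state differ in many transcripts whatever their genotype.

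The stretch around this element in Apob is shown because the question of the knockout starts there. Beside it stands the matching stretch of Rnf128, another transcript known to be edited. Sequences are from the transcripts of GENCODE M21 (GRCm38, the mm10 build), 5′ to 3′. Capitals mark the longest run that the Apob and Rnf128 transcripts have in common, 15 bases that hold the mooring element of Apob. The edited C of Rnf128 was not located, and the bases shown before its run hold no C. The Apob window lies at chr12:8008051-8008080 on the plus strand, in coding sequence of exon 26 of 29, and the Rnf128 window at chrX:139672472-139672501 on the plus strand, in noncoding sequence of exon 7 of 7.
Apob: atacaatTTGATCAGTATATTAaagataat
Rnf128: gaattggTTGATCAGTATATTAgtgacacc
An exact match to the 15 bases on the transcribed strand was held by these genes alone among 13431 tested genes with transcripts (0.0149%). The run was taken from these 2 genes, so that both hold it was fixed in advance. The mooring element alone was not searched for. The levels of both transcripts are given with the editing complex below. A shared run of letters says nothing of whether a site is bound or edited.

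Saa1 stood at 21.3, 65.5, 20.2 and 21.6 CPM of the library total in the 4 WT and at 77.9, 88.5 and 71.7 in the 3 KO libraries. Nearest to the threshold from below was KO 584 at 88.5 CPM, and nearest from above was KO 591 at 1925 CPM. The other libraries left out were KO 588 at 3634, WT 601 at 6510, WT 590 at 7851 and KO 602 at 16541 CPM. Each of the 3 KO libraries therefore lay above each WT library in Saa1 even among those kept. These values chose the libraries, so acute phase genes are described here without a test. On one scale for all 12 libraries, Saa2 ran from 8.26 to 32.7 CPM in the 7 libraries kept and from 1345 to 17470 CPM in the 5 left out. The siderophore-binding Lcn2 ran from 3.93 to 17.1 against 52.0 to 1730 CPM, and Orm2, an orosomucoid gene, from 4.98 to 13.2 against 124 to 2131 CPM. The haptoglobin gene Hp came close to touching, at 3252 to 4910 against 4965 to 18080 CPM. Crp at 262 to 332 against 284 to 378 CPM, Lbp at 114 to 157 against 102 to 180 CPM and the fibrinogen genes Fga, Fgb and Fgg overlapped between the sets. Within the 7 libraries Lcn2 was highest in WT 776 (17.1 CPM), and Orm2 was at 4.98 to 8.09 CPM in WT and 7.86 to 13.2 CPM in KO.

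**Figure D1:**
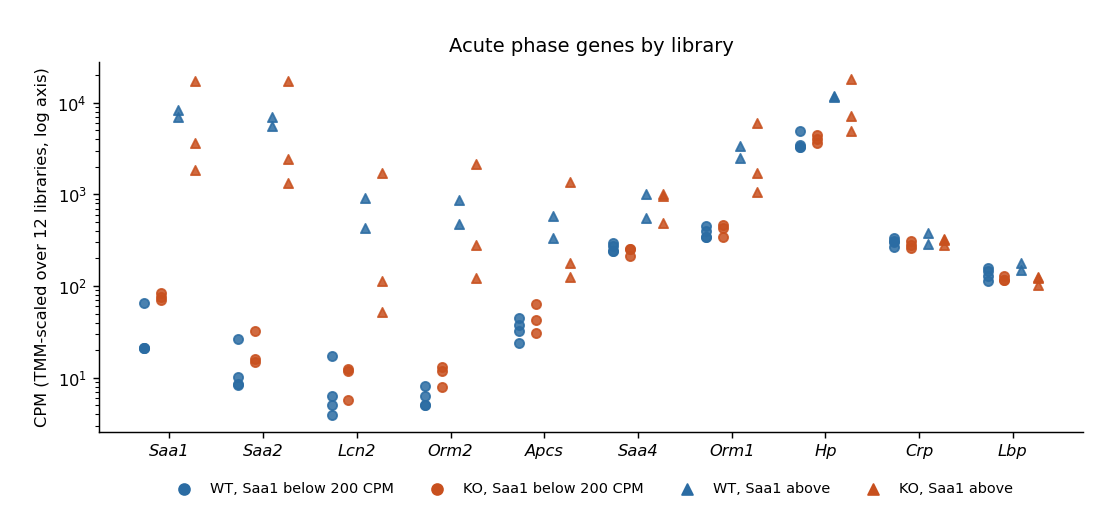
Level of 10 acute phase genes in each of the 12 libraries, in CPM scaled by TMM over all 12 (log axis). Circles are the 4 WT and 3 KO libraries with Saa1 below 200 CPM and triangles the 2 WT and 3 KO libraries above it. Saa2 lies between 8.26 and 32.7 CPM in the circles and at 1345 CPM or more in the triangles, while Crp and Lbp overlap.

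The 7 libraries held 22129092 to 40597491 counts each. Counts of every pair within a genotype differed by more than counting noise (chi-square divided by its degrees of freedom, 16.6 to 92.0). Hepatocyte markers defined the tissue as labelled: all 11 were tested, none was at 0, and their summed level was 110300 to 130000 CPM in WT and 100100 to 120000 CPM in KO. The Y-linked Ddx3y was at 37.6 to 71.9 CPM in these 7 libraries. The first principal component of the 7 libraries held 32.7% of the variance and put the KO libraries at 16.9 to 29.9 and the WT libraries at -36.6 to -4.90. The second held 24.8% and put WT 573, KO 574 and KO 584 at -32.9, -9.5 and -12.2. It put WT 776, 777 and 778 and KO 780 higher, at 17.2, -4.5, 5.85 and 36.2.

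A1cf (chromosome 19, 31868761 to 31949406, plus strand, mm10) checked the labels. Its level was 48.8, 53.6, 50.3 and 54.7 CPM in WT and 12.8, 10.3 and 8.44 CPM in KO, scaled by TMM over the 7 libraries as are all CPM below unless another scale is named. Each KO library lay below each WT library. On the log2 scale it fell by 2.30, SE 0.14, and passed with an edgeR adjusted p of 6.1e-04 (quasi-likelihood test, Benjamini-Hochberg). Permuting the genotypes over the 7 libraries, an exact test with 35 assignments, gave p = 0.057 (two-sided), which is the lowest value open to 4 against 3 libraries. The exons behind the fragments left in KO cannot be read from counts per gene.

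Comparing KO with WT in these 7 libraries asks which transcripts differ with A1cf where acute phase genes are low. Genes of xenobiotic metabolism (Cyp2b9), protease inhibition (Serpinb1a), replication-dependent histones and a major urinary protein (Mup20) were among those that rose, and genes of vitamin E transfer (Ttpa), glutathione synthesis (Gclc) and peroxisomal import (Pex5, Pex7) were among those that fell. Of 13920 tested genes, 240 passed an adjusted p of 0.05 in edgeR (1.72%), of which 117 rose (0.841%) and 123 fell (0.884%). A change of at least 2-fold was reached by 76 of the 240, 58 upward and 18 downward. Genes that rose were lower in level (median mean CPM 10.6, against 11.7 over all tested genes) and moved further (median log2 fold change 0.98) than genes that fell (28.5 CPM and -0.67). The genotypes overlapped in none of the 240, and over all tested genes they did not overlap in 2590 (18.6%). The median log2 fold change of all tested genes was 0.02. Scaling by library totals alone gave 130 rises and 82 falls, 61.3% higher in KO against 48.8% with TMM.

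The number of calls depended on single libraries. It was 9 without WT 778, 12 without WT 777, 28 without KO 574, 61 without KO 780 and 143 without WT 776, and 174 and 177 without WT 573 or KO 584. All 240 genes kept their direction in each of these 7 fits, which the lack of overlap between genotypes left little room to change. A call in all 7 was kept by 9 genes, among them A1cf, Gbas, Lad1, Perp and Tnfaip8l1 and, named here after their values were seen, Atp11a, a phospholipid flippase (log2 1.41), Tbc1d30, a Rab GTPase-activating protein (1.23), and Fgfr1, a fibroblast growth factor receptor (1.18). Of the 57 genes with a call that the naming rule took, 7 lost it in every one of these fits: Creld2, Gulo, Hc, Hist2h3c2, Hyou1, Rdh9 and Slc2a5. The labels number the libraries in 2 ranges, 573 to 602 (WT 573, KO 574 and 584) and 776 to 780 (WT 776, 777 and 778, KO 780). That all 240 genes had the same direction within both was fixed by the lack of overlap between genotypes. With the range as a covariate 471 genes passed, and 5 of the 57 lost their call: Cyp7b1, Enho, Hist1h4h, Mogat2 and Smim22. The meaning of the range is not given in the sources used here.

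**Figure D2:**
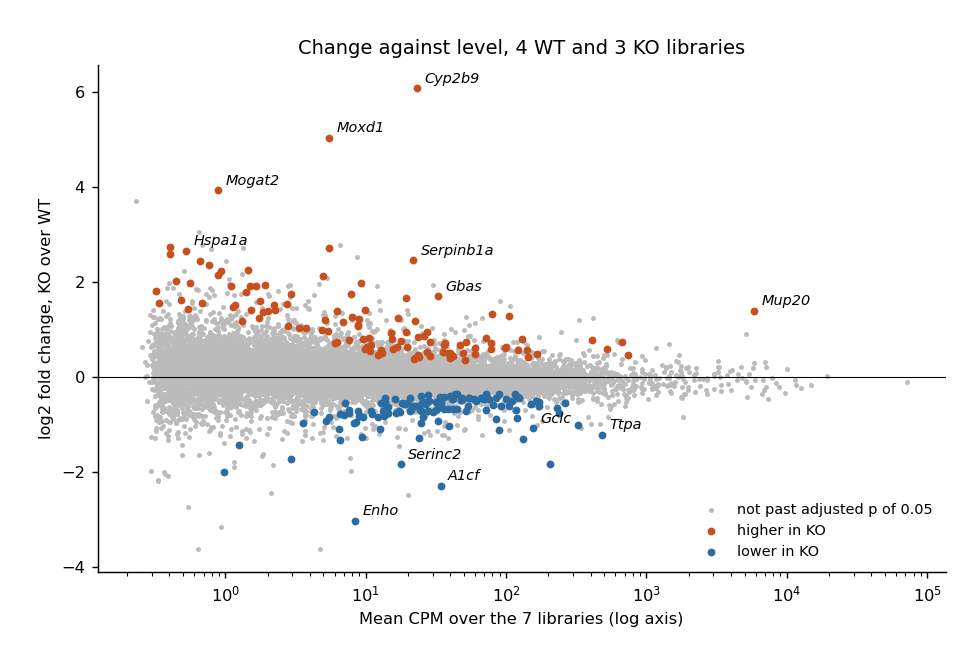
Log2 fold change of KO over WT against mean CPM (log axis) for the 13920 genes tested in 4 WT and 3 KO libraries; each point is a gene, orange for the 117 that rose, blue for the 123 that fell and grey for the rest. Cyp2b9 and Moxd1 stand highest, at log2 6.08 and 5.03, and Enho is lowest among the coloured points, at -3.03.

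The largest rise was in Cyp2b9, a drug-metabolising cytochrome P450 with a female bias in mouse liver. It was at 0.668, 1.01, 0.713 and 0.763 CPM in WT and 94.1, 25.9 and 39.5 CPM in KO, a log2 fold change of 6.08 with SE 0.54 (edgeR adjusted p = 0.012). Every KO library was more than an order of magnitude above every WT library. Moxd1, a copper-dependent monooxygenase related to dopamine beta-hydroxylase, was at 0.198, 0.412, 0.600 and 0.327 CPM in WT and 14.6, 4.80 and 17.4 CPM in KO (log2 fold change 5.03 with SE 0.53; edgeR adjusted p = 0.012). Its WT values rest on few counts, so the gene passed the low-count filter through its KO level. In the 5 libraries with high Saa1 the gene was high in both genotypes, at 45.8 and 52.0 CPM in WT 590 and 601 and 34.5, 70.3 and 209.9 CPM in KO 588, 591 and 602. Moxd1 thus moved with Saa1 as well as with genotype, and Saa1 itself was higher in the 3 KO than in the 4 WT libraries. The part of the acute phase state in this rise was not tested. Ifi27l2b, of the family of interferon-inducible Ifi27 genes, was also higher in the WT libraries of high Saa1 (13.1 and 17.9 CPM). In the 7 it was at 4.03, 4.57, 3.86 and 3.96 CPM in WT and 22.3, 17.8 and 8.35 CPM in KO (log2 1.98).

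Serpinb1a, an inhibitor of neutrophil serine proteases, was at 12.3, 4.34, 5.74 and 7.31 CPM in WT and 53.0, 39.5 and 31.2 CPM in KO (log2 fold change 2.46 with SE 0.36; edgeR adjusted p = 0.032). The lowest KO library was above the highest WT library, WT 573. Gbas, which encodes the mitochondrial protein NIPSNAP2, was at 13.3, 17.7, 16.8 and 19.2 CPM in WT and 57.1, 49.98 and 56.0 CPM in KO (log2 fold change 1.70 with SE 0.12; edgeR adjusted p = 0.001). Its KO values lay close together, and its adjusted p was among the smallest of all genes. Lad1, which encodes ladinin of basement membranes, was at 9.70, 8.68, 12.2 and 9.74 CPM in WT and 30.2, 29.4 and 35.5 CPM in KO (log2 fold change 1.65 with SE 0.13; edgeR adjusted p = 0.001). Pde1a, a calmodulin-dependent cyclic nucleotide phosphodiesterase, was at 1.34, 1.72, 1.31 and 1.45 CPM in WT and 5.07, 3.80 and 5.84 CPM in KO (log2 1.75). Other rises were in genes of low level, with every WT value at 1.09 CPM or less: the RAS-like GTPase gene Rasl10b (log2 2.24), the mesenchymal homeobox gene Prrx1 (1.91), the sialyltransferase gene St8sia3 (1.91) and the PHD finger gene Phf21b (1.90).

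Among falls, Enho, which encodes the secreted peptide adropin, came first. It was at 11.5, 19.7, 12.9 and 9.89 CPM in WT and 0.756, 3.11 and 1.13 CPM in KO, a log2 fold change of -3.03 with SE 0.50 (edgeR adjusted p = 0.039). Its highest KO value, in KO 584, was still below its lowest WT value. The Enho log2 fold change did not pass with the library number range as a covariate (edgeR adjusted p = 0.063), and with 1 library left out it passed without KO 584 alone. Serinc2, of the serine incorporator family, was at 23.3, 19.7, 29.4 and 30.8 CPM in WT and 9.28, 6.01 and 6.23 CPM in KO (log2 fold change -1.84 with SE 0.21; edgeR adjusted p = 0.012). Ttpa, the alpha-tocopherol transfer protein that loads vitamin E onto lipoproteins leaving the liver, was at 548, 609, 699.7 and 692 CPM in WT and 247, 242 and 333 CPM in KO (log2 fold change -1.22 with SE 0.15; edgeR adjusted p = 0.012). The highest KO value of Ttpa was well under its lowest WT value. Perp, a p53-induced membrane protein of desmosomes, was at 123, 99.9, 124 and 120.2 CPM in WT and 55.4, 58.1 and 47.0 CPM in KO (log2 fold change -1.13 with SE 0.11; edgeR adjusted p = 0.0051).

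Cyp7b1, the oxysterol 7-alpha-hydroxylase of the acidic bile acid pathway and a gene usually higher in male liver, was at 148, 119, 255 and 188 CPM in WT and 66.8, 74.2 and 74.3 CPM in KO (log2 fold change -1.31 with SE 0.24; edgeR adjusted p = 0.048). Its WT libraries spread widely and its KO libraries did not. Sugct, a mitochondrial CoA transferase of glutarate metabolism, was at 37.8, 24.6, 34.7 and 32.5 CPM in WT and 16.9, 9.99 and 12.8 CPM in KO (log2 -1.29). Zap70, the T cell receptor kinase, was at 14.6, 10.6, 12.2 and 13.1 CPM in WT and 4.89, 7.26 and 3.59 CPM in KO (log2 fold change -1.27 with SE 0.23; edgeR adjusted p = 0.035). Of 17 T and NK cell markers 8 were tested, and Zap70 alone passed. The list's summed level was 17.2 to 22.1 CPM in WT and 12.96 to 15.7 CPM in KO, with Zap70 itself a large part of it. The list's mean log2 CPM was -0.027, 0.506, -0.401 and 0.440 in WT and -0.48, 0.093 and 0.019 in KO, with the genotypes overlapping. The T cell receptor subunit gene Cd3e was at 0.113 to 0.605 CPM over the 7 libraries with the genotypes overlapping. In bulk tissue, fewer cells of a type and less RNA per cell cannot be told apart. The remaining large falls were in Ccdc171, a coiled-coil gene (log2 -1.73), Smim22, a small membrane protein gene (-1.43), the water channel gene Aqp4 (-1.33) and the calpain protease gene Capn10 (-1.10).

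**Figure D3:**
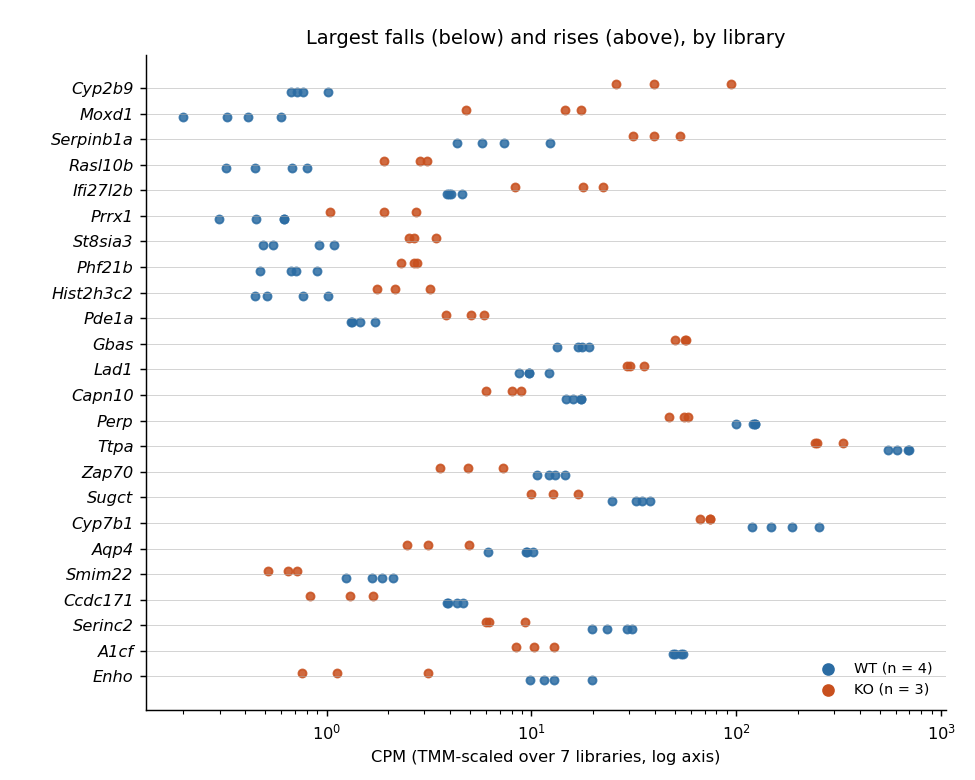
Level in each of the 4 WT (blue) and 3 KO (orange) libraries, in CPM scaled by TMM over the 7 (log axis), of the 12 largest rises (upper rows, Cyp2b9 to Lad1) and the 12 largest falls (lower rows, Capn10 to Enho) past an adjusted p of 0.05. In every row the 2 genotypes are apart, most widely in Cyp2b9 and Moxd1.

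Genes of the editing complex and of lipoprotein assembly were followed whatever their result. Apobec1 was at 12.5, 10.1, 10.5 and 11.3 CPM in WT and 11.2, 9.81 and 9.43 CPM in KO (log2 fold change -0.13; edgeR adjusted p = 0.59), with the genotypes overlapping. Rbm47, another APOBEC1 cofactor, was at 0.21 (adjusted p = 0.22). Of 12 tested genes of the editing complex, A1cf alone passed. Among 30 transcripts with reported APOBEC1 editing sites none passed; their median was 0.02, as for all genes, and 10 of them had all KO below all WT values against 9.53% of all tested genes. Rnf128, a ubiquitin ligase gene whose run shared with Apob is shown above, was at 99.2, 88.7, 92.7 and 85.4 CPM in WT and 76.2, 73.0 and 72.3 CPM in KO (log2 fold change -0.31; edgeR adjusted p = 0.084). Apob was at -0.08 (adjusted p = 0.71), the lipid transfer protein gene Mttp at -0.04, Tm6sf2, an ER factor of lipid loading, at -0.17 and the ketohexokinase gene Khk at -0.49 on the log2 scale, and none of them passed. Of 41 tested genes of VLDL assembly and lipoprotein handling, 1 rose, against 0.841% of all tested genes, and none fell. It was Abca1, the cholesterol exporter that starts HDL formation, at 131, 122, 111 and 108 CPM in WT and 177, 178 and 167 CPM in KO (log2 fold change 0.56; edgeR adjusted p = 0.025).

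Single lipid and sterol genes passed in their lists, while over all tested genes 0.841% rose and 0.884% fell. Of 37 tested genes of fatty acid and triglyceride synthesis, 1 rose: Mogat2, a monoacylglycerol acyltransferase, at 0.124, 0.0749, 0.188 and 0.109 CPM in WT and 4.03, 0.778 and 0.952 CPM in KO (log2 fold change 3.93 with SE 0.70; edgeR adjusted p = 0.037). KO 574 was well above the other KO libraries, and the WT values rest on a few counts each, so the gene was tested through its KO level. The Mogat2 log2 fold change ran from 2.76 to 4.30 with 1 library left out and passed in 1 of those 7 fits. It did not pass with limma-voom (adjusted p = 0.074), and a filter at a mean of 1 CPM left the gene untested. Of 27 tested genes of cholesterol synthesis and its control, 1 fell and none rose: Hsd17b7, an enzyme of sterol demethylation, at 40.1, 51.5, 55.6 and 52.8 CPM in WT and 31.7, 30.6 and 31.1 CPM in KO (log2 fold change -0.68; edgeR adjusted p = 0.028). All 27 lay below 0, as did 6569 of all 13920 tested genes. Their median log2 fold change was -0.55, against 0.02 over all genes. The mean log2 CPM of the list was 5.16, 4.78, 5.47 and 5.35 in WT and 4.93, 4.41 and 4.28 in KO. KO 574 stood above WT 776, so the genotypes overlapped. In 7 of the 27 genes all KO lay below all WT values, against 9.53% of all tested genes. The isomerase gene Idi1 (log2 fold change -1.33; edgeR adjusted p = 0.26) and the squalene epoxidase gene Sqle (-1.21, 0.27), named after their values were seen, had among the larger differences and did not pass. In bile acid synthesis and transport Cyp7b1 was the only one of 28 tested genes that passed (median -0.19).

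Sugar and folate genes with a call were single members of their lists, while over all tested genes 0.841% rose and 0.884% fell. Phkb, the regulatory beta subunit of phosphorylase kinase, was at 16.1, 17.9, 19.2 and 17.7 CPM in WT and 33.8, 27.9 and 33.0 CPM in KO (log2 fold change 0.83 with SE 0.10; edgeR adjusted p = 0.012), 1 of 33 genes of gluconeogenesis and glycogen. The fructose transporter gene Slc2a5 was at 9.06, 6.81, 8.85 and 10.03 CPM in WT and 13.9, 13.4 and 14.4 CPM in KO (log2 fold change 0.68; edgeR adjusted p = 0.045), 1 of 28 genes of fructose, glycerol and glycolysis, whose median was -0.20. Slc46a1, the proton-coupled folate transporter, was at 33.1, 25.5, 35.6 and 31.8 CPM in WT and 19.2, 15.8 and 12.7 CPM in KO (log2 -0.98), 1 of 30 folate genes. Hal, the first enzyme of histidine breakdown and a periportal gene, was at 524, 606, 528 and 427 CPM in WT and 839.8, 907 and 848 CPM in KO (log2 0.73), 1 of 45 genes of urea synthesis and amino acid breakdown. In the pericentral list of 35 genes, Gulo, of vitamin C synthesis (log2 -0.67), and the retinol dehydrogenase gene Rdh9 (-0.95) fell, against 0.884% of all tested genes.

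Few genes of the secretory pathway's chaperones passed. Of 34 tested genes of the ER unfolded protein response, 3 fell, against 0.884% of all tested genes, and none rose. The number of members that passed was 1 with library totals, with limma-voom and without WT 573 or KO 584, and 0 without WT 777, WT 778, KO 574 or KO 780; it was 12 with DESeq2 or with the number range as a covariate. Dnajc3, an ER co-chaperone, was at 185, 187, 186 and 197 CPM in WT and 130.1, 131 and 138 CPM in KO (log2 fold change -0.50; edgeR adjusted p = 0.02). The ER chaperone gene Hyou1 (log2 -0.61, adjusted p = 0.046) and the ER stress gene Creld2 (-0.72, 0.048) were the others. The list had 28 of 34 members below 0 and a median of -0.35, and in 18 of the 34 all KO lay below all WT values, against 9.53% of all tested genes. Its mean log2 CPM was 6.39, 6.29, 6.19 and 6.34 in WT and 6.00, 5.97 and 5.84 in KO, without overlap. Hspa5, which encodes BiP and is named after its value was seen, was at 736, 744, 541 and 737 CPM in WT and 499.8, 486 and 398 CPM in KO (log2 fold change -0.58; edgeR adjusted p = 0.079). Small differences of one sign ran through 2 more lists without any call. Of 40 respiratory chain and ATP synthase genes 38 lay below 0 (median -0.17, 15 with all KO below all WT), and of 30 cytosolic ribosomal protein genes 29 did (median -0.13, 16 with all KO below all WT).

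Peroxisomal import and redox genes held further falls. Pex5, the receptor that brings most peroxisomal matrix enzymes to the organelle, was at 153, 141, 159 and 140.0 CPM in WT and 91.7, 78.7 and 73.4 CPM in KO (log2 fold change -0.87 with SE 0.10; edgeR adjusted p = 0.012). Pex7, the receptor for the other import signal, was at 68.9, 53.6, 64.0 and 64.4 CPM in WT and 38.3, 36.9 and 38.9 CPM in KO (log2 fold change -0.72 with SE 0.10; edgeR adjusted p = 0.015). Both receptors were lower in every KO than in every WT library. They were the 2 of 21 tested genes of peroxisome import and membrane that fell, against 0.884% of all tested genes. This list was written after values were seen (median -0.11). Gclc, the catalytic subunit of the enzyme that limits glutathione synthesis, was at 172, 176, 229 and 226 CPM in WT and 94.8, 102 and 87.3 CPM in KO (log2 fold change -1.08 with SE 0.13; edgeR adjusted p = 0.012), the only 1 of 37 oxidative stress and NRF2 target genes that passed (median -0.16).

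Histone genes and a heat shock gene rose. Of 58 replication-dependent histone genes, a list also written after values were seen, 8 were abundant enough to be tested. Of these 8, 6 rose, against 0.841% of all tested genes. The linker histone gene Hist1h1c was at 50.9, 48.2, 44.2 and 48.6 CPM in WT and 90.1, 166 and 104 CPM in KO (log2 fold change 1.32; edgeR adjusted p = 0.023). The others that rose were Hist1h2be (log2 2.24), Hist2h3c2 (1.78), Hist2h2be (1.53), Hist1h4h (1.51) and Hist3h2a (1.25). Members that pass a filter on low counts through a higher KO level had to differ, and histone genes have close copies that can share reads, so these counts describe the 8 genes only. None of 29 genes of cell cycle and DNA replication passed (median 0.06). Hspa1a, a stress-induced chaperone with a near-identical neighbour, was at 0.124, 0.150, 0.150 and 0.218 CPM in WT and 0.900, 0.562 and 1.60 CPM in KO (log2 fold change 2.66; edgeR adjusted p = 0.027), the only 1 of 28 heat shock genes past the threshold and, in WT, also a matter of a few counts per library. Hspa1a therefore passed the low-count filter through its KO level. No gene of 30 immediate early genes passed (median 0.35), and Atf3, a stress-induced transcription factor gene, was at log2 1.93 (adjusted p = 0.069 in edgeR). Noct, a rhythmically expressed phosphatase gene, was at 58.4, 74.2, 58.2 and 56.9 CPM in WT and 82.4, 108 and 113 CPM in KO (log2 0.70), 1 of 24 clock genes.

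Few drug-metabolising and sex-biased genes passed. Of 64 tested genes of drug metabolism 3 rose, against 0.841% of all tested genes: Cyp2b9, the glucuronosyltransferase gene Ugt1a6a (log2 0.76) and the sulfotransferase gene Sult1a1 (0.59, from 433 to 651 CPM on average). None fell (list median -0.11), and the number that passed was 0 without WT 777 or WT 778 and 1 without KO 574 or KO 780. Mup20, the male pheromone darcin, was at 4165, 2358, 3843 and 3465 CPM in WT and 9037, 7456 and 10749 CPM in KO (log2 fold change 1.39 with SE 0.20; edgeR adjusted p = 0.02). The Mup and Cyp2b families hold near-identical copies, and Ugt1a6a shares exons with its neighbours, so their single values are uncertain. Of 18 tested female-biased genes Cyp2b9 alone passed, and of 42 male-biased genes Mup20 rose and Cyp7b1 fell. The medians of both lists changed sign under some of the settings tried.

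No gene of the interferon response or matrix lists passed, though most of their differences had one sign. Of 45 tested interferon response genes 44 lay above 0, the median was 0.72, and 7 had all KO above all WT values, against 9.07% of all tested genes. The mean log2 CPM of the list was 3.34, 3.24, 2.12 and 2.79 in WT and 3.97, 4.02 and 3.05 in KO. WT 573 and 776 lay above KO 780, so the genotypes overlapped. The antiviral oligoadenylate synthetase gene Oas2 was at 1.76, 2.88, 2.10 and 2.58 CPM in WT and 6.23, 3.46 and 5.06 CPM in KO (log2 fold change 1.09; edgeR adjusted p = 0.068). Nlrc5, the transactivator of MHC class I genes, was the only 1 of 22 genes of class I presentation that passed (log2 0.66, edgeR adjusted p = 0.038). Over all tested genes 0.841% rose, and the median of the class I list was 0.01. Of 32 tested matrix and fibrosis genes 29 lay above 0 (median 0.47, and 0.29 without WT 777), and 3 had all KO above all WT values, against the same 9.07%. The mean log2 CPM of this list was 2.96, 3.51, 2.56 and 3.25 in WT and 3.62, 3.35 and 3.58 in KO, so WT 776 lay above KO 584. It holds the type I collagen gene Col1a1 at 3.17, 5.35, 0.975 and 2.84 CPM in WT and 7.41, 3.80 and 4.20 CPM in KO (named after its value was seen). Complement and coagulation genes held 1 rise and 1 fall among 39, against 0.841% and 0.884% of all tested genes. They were Hc, the C5 gene (log2 0.47), and the classical pathway protease gene C1s1 (-0.56).

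Stellate, Kupffer and endothelial cell markers lay mostly above 0 in log2 fold change, without a call. None of the 14 tested stellate cell and fibroblast markers passed; 13 lay above 0 with a median of 0.49, and their summed level was 232 to 391 CPM in WT and 366 to 515 CPM in KO. Kupffer cell and macrophage markers (15 tested of 16, none past the threshold, 15 above 0, median 0.17) summed to 196 to 301 CPM in WT and 225 to 394 CPM in KO, and endothelial markers (14, none past it, 12 above 0, median 0.18) to 209 to 403 and 316 to 379 CPM. All 3 marker sums overlapped between the genotypes. The fat cell gene Cfd was at 9.48, 0.225, 0.113 and 1.09 CPM in WT and 34.7, 2.46 and 12.6 CPM in KO and was the only 1 of 9 muscle and fat markers abundant enough to be tested. The part of such cells in the results was not tested.

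**Figure D4:**
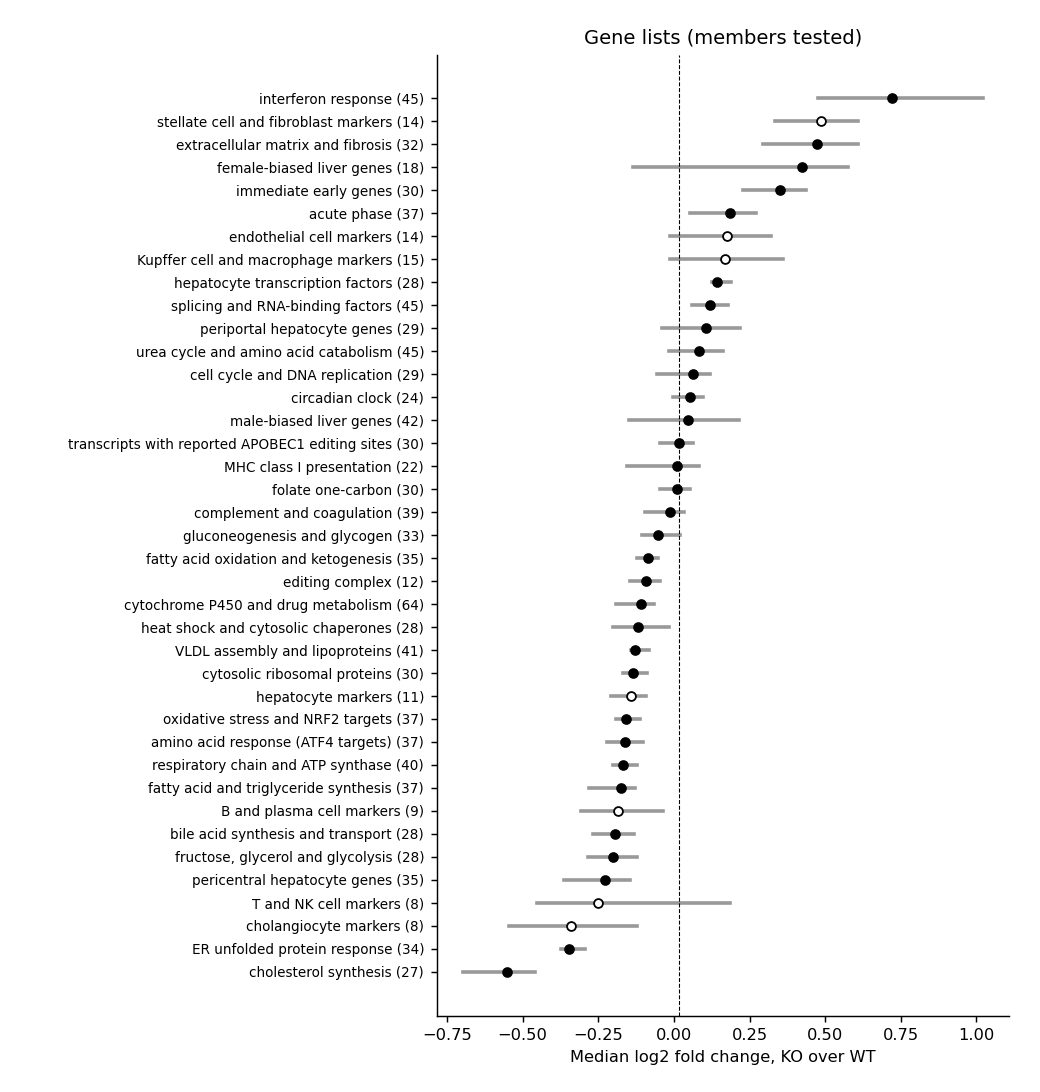
Median log2 fold change of KO over WT for each gene list with at least 8 tested members (number tested in brackets; the 2 lists written after values were seen are not drawn), filled for pathway lists and open for cell type markers; the grey bar spans the medians over the settings tried and the dashed line is the median of all tested genes, 0.02. Cholesterol synthesis lies lowest at -0.55 and the interferon response highest at 0.72.

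Some genes passed in these 7 libraries and not in a fit of all 12, where 523 of 13706 genes passed (3.82%). The 2 fits share these libraries, so the values are given side by side. Spns2, a sphingosine-1-phosphate exporter, was at 31.5, 25.8, 30.2 and 27.7 CPM in WT and 50.9, 42.7 and 48.5 CPM in KO, a log2 fold change of 0.72 in the 7 (adjusted p = 0.017 in edgeR) and 0.37 in all 12. Dhtkd1, a mitochondrial dehydrogenase of lysine breakdown, was at 83.6, 84.6, 75.4 and 81.1 CPM in WT and 119.6, 117 and 138 CPM in KO, with 0.62 in the 7 and 0.35 in all 12. Hsd11b1, which regenerates active glucocorticoid, was at 477, 364, 445 and 368 CPM in WT and 245, 190.4 and 174 CPM in KO, with -1.03 in the 7 and -0.68 in all 12. Each of the 3 genes differed less over all 12 libraries than over the 7. Choosing genes called in the 7 and not in all 12 favours this outcome in advance. The others named by the same rule were Tnfaip8l1 (-0.94 in the 7, -0.79 in all 12), the prion protein gene Prnp (0.86 and 0.75), the zinc finger gene Zfp715 (0.92 and 0.48), Lad1 (1.65 and 1.32) and Moxd1 (5.03 and 1.83). Conversely, 4 genes with large falls over all 12 libraries, chosen after their values were seen, did not pass here. Asns, asparagine synthetase, was at 2.05, 19.2, 3.56 and 6.22 CPM in WT and 0.216, 1.43 and 0.260 CPM in KO, a difference of -3.63 on the log2 scale with SE 1.10 (edgeR adjusted p = 0.16). Its genotypes did not overlap, and WT 776 was far above the other WT libraries. Cyp39a1, an oxysterol hydroxylase, was at 16.7, 44.7, 30.6 and 31.8 CPM in WT and 2.20, 6.92 and 7.57 CPM in KO (-2.48, adjusted p = 0.073), the melatonin receptor gene Mtnr1a at -1.87 (0.099) and Bhlhb9 at -1.30 (0.067).

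The 5 libraries left out (WT 590 and 601, KO 588, 591 and 602) share no sample with the 7 and gave the same contrast where acute phase genes were high. In 1 fit of all 12 libraries with 4 groups, 31 of 14714 genes passed there (0.211%), and 22 of the 240 genes did. The spread of each gene in that fit was estimated over all 12 libraries, so its p-values are not independent of the 7. Of the 240, 224 had the same direction in the other 5 libraries (93.3%), against 67.6% of all 13920 genes. The median ratio of the change in the 5 to that in the 7 was 0.64. A smaller change in the 5 was favoured in advance, because the 240 were chosen by their change in the 7. Across genes, which are not independent replicates, Pearson's r between the 2 changes was 0.88 over the 240 and 0.50 over all 13920. Cyp2b9 was at log2 6.21 in the other 5 libraries, Enho at -2.83, A1cf at -2.22, Gbas at 1.71, Ttpa at -1.19 and Pex5 at -0.82, each close to its value in the 7. Cyp2b9 (SE 1.45, edgeR adjusted p = 0.135) and Enho (SE 0.76, edgeR adjusted p = 0.179) spread widely there and did not pass. Gclc (-0.37), Hsd11b1 (-0.28), Hal (0.07), Spns2 (-0.08) and Moxd1 (1.10) were nearer to 0 there. The difference between the 2 changes passed for none of 14714 genes in edgeR (0%, smallest adjusted p 0.90). An unadjusted p under 0.05 was found for 691, a share below the 0.05 that chance alone gives. No gene could therefore be called particular to livers with low or high Saa1 at this number of libraries. For Moxd1 the difference was 3.94 on the log2 scale (SE 1.13, unadjusted p = 0.0072), for Gclc -0.73 (SE 0.21, unadjusted p = 0.004) and for Spns2 0.79 (SE 0.17, unadjusted p = 4.5e-04), all in the same edgeR fit. The edgeR adjusted p of this difference was 0.98 for each of these genes.

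**Figure D5:**
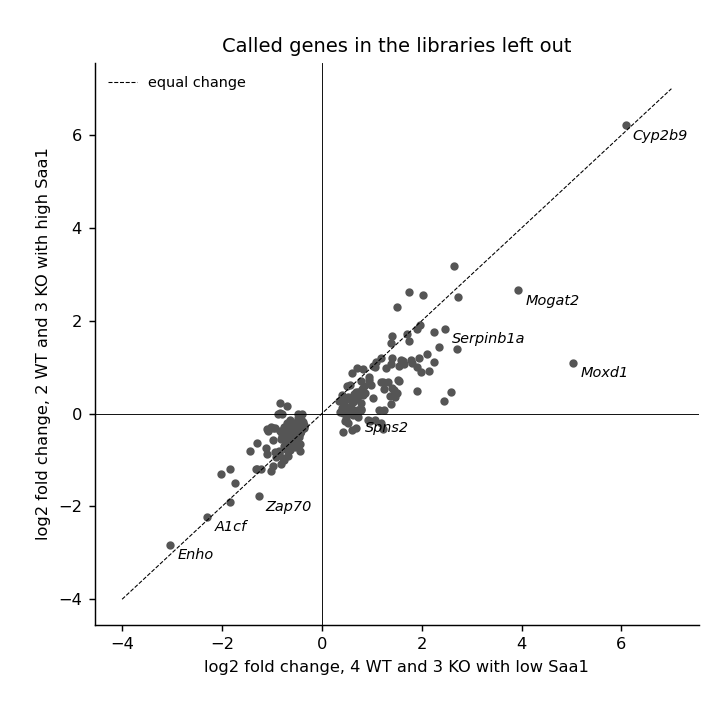
Log2 fold change of KO over WT in the 2 WT and 3 KO libraries with high Saa1 against that in the 4 WT and 3 KO libraries with low Saa1, for the 240 genes past the threshold in the latter; each point is a gene and the dashed line marks equal change. 224 points lie on the same side of 0 on both axes, and Moxd1 lies far below the line.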

How the data were processed

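Frozen livers gave total RNA for TruSeq RNA libraries and Illumina sequencing, per the labels. The authors deposited raw fragment counts for each gene name, from featureCounts 1.5.0-p2 over exons of GENCODE M8 without a strand option, per the file headers, so overlapping genes on opposite strands cannot be told apart. The submitters' processing notes name STAR and mm10. The other column of the deposited table that was read, gene length, is another value per gene and entered no test.

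The members and lists were chosen with earlier results of these data known. Libraries with Saa1 below 200 CPM of the library total were kept. Counts were analysed with edgeR 4.0.16 in R 4.3.3: filterByExpr (minimum count 10), TMM over the 7 libraries, the robust quasi-likelihood test with genotype as the only term, and Benjamini-Hochberg adjustment over 13920 genes, threshold 0.05. "Rose" and "fell" are used past it only. SE is the absolute log2 fold change divided by the square root of the F statistic of the quasi-likelihood test, not a fitted standard error. CPM of the 5 libraries left out are scaled over all 12, which moves a value by up to 2.92%. A level of 0 would allow up to 3 counts, 0.0742 to 0.130 CPM in the 7, by counting error only.

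Genes were named by rule: A1cf, Saa1, Apobec1, Rbm47, Apob, Mttp, Tm6sf2 and Khk; the 12 largest rises and falls with no overlap and a mean of 1 CPM or more, passing over unnamed gene models (4 among rises); up to 4 called members of each list, or at most 2 without a call, of which not all are printed; and up to 8 genes called in the 7 but not in all 12 libraries. Lists (34 of pathways, 11 of markers, 2 of them written after values were seen) are given by counts and medians, without a set test. Counts of called members stand beside the shares over all tested genes, of which 0.841% rose and 0.884% fell. 1 gene is not reported here and is left out of its list. In data simulated from the real means of this comparison (13920 genes, 200 changed), the share called was 28% at 1.5-fold, 66% at 2-fold and 84% at 4-fold, and 2.96% of calls were false. Other settings tried were RLE factors, library totals, other count filters, DESeq2 1.42.0, limma-voom (limma 3.58.1), the number range as covariate, each library left out, and other Saa1 limits.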

Additional observations from a re-analysis of the deposited data

Results flagged for a closer look

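Each of the 107 named genes was examined for a library far from the other 3 among the 4 WT libraries (Dixon's gap over the range, 95% level); 9 were found, and chance gives about 1 in 20. The 3 KO libraries are too few for this check. Saa1, which chose the libraries, was at 66.2 CPM in WT 776 against 21.3 to 21.4 CPM in the other WT libraries. The neutrophil gene S100a9 was also highest there, at 1.80 against 0.450 to 0.582 CPM, as was Noct, at 74.2 against 56.9 to 58.4 CPM. Perp was lowest in WT 776, at 99.9 against 120.2 to 123.8 CPM, still above all 3 KO values. The adipose gene Cfd was at 9.48 CPM in WT 573 against 0.113 to 1.09 CPM, and that library also stood apart in Hist1h2be (0.569 against 0.255 to 0.300 CPM) and Tm6sf2 (24.8 against 29.3 to 29.8 CPM). Dnajc3 was at 197 CPM in WT 778 against 184 to 186 CPM, and Orm3, an orosomucoid gene, at 4.32 CPM in WT 777 against 1.497 to 1.745 CPM.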

How the results depend on the processing

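The 240 genes past the threshold became 458 without a low-count filter, 861 with DESeq2, 471 with the library number range as covariate (218 shared with the 240), 523 over all 12 libraries and 893 over all 12 with log2 Saa1 as covariate. Leaving out 1 library gave 9 to 177 genes. With RLE size factors 241 passed, with library totals 212, with a mean of at least 1 CPM 217, with limma-voom 198 and with KO 591 added 278. For gene lists in the 7 libraries, 33 members passed, beside 1.72% of all tested genes. With the range covariate 86 members passed, and 1 to 30 did with 1 library left out. In the other 5 libraries 31 genes passed in the fit of 12 and 5 when those libraries were fitted alone. The difference between the 2 sets gave 0 genes under the range covariate, library totals and RLE as well. The log2 fold change of A1cf ran from -2.47 to -2.16 with 1 library left out and stayed past the threshold. None of the 57 named genes with a call changed direction under a setting tried, while 7 without a call did in at least 1 (Apobec1, Fabp2, Mttp, Orm2, S100a9, Saa1 and Trf). In fits within the 7 libraries, the lack of overlap between genotypes left little room for such a change in the 57. Of the 57, 52 kept the call with the range covariate and 5 in all 7 fits with 1 library left out. The cause of these shifts in number was not tested. No paired analysis was possible because the 2 genotypes share no library number. With 4 and 3 libraries, changes under 2-fold were often missed in simulated data, so a gene without a call is not shown to be alike in both genotypes.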
